A study of Sus scrofa with 12 samples.

Results

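Forkhead (FOX), SOX and GATA genes code for families of transcription factors, proteins that bind DNA and set which genes a cell reads. They were followed here in the uterus of newborn gilts (young female pigs) over the earliest days of life. Genes were taken from the deposited table by symbol: FOX followed by a letter from A to S and a number, SOX followed by a number, or GATA1 to GATA6, with FOXM1, FOXJ1 and SOX18 set aside. Of the 20390 genes in the table, 21 met this rule, 14 of them FOX, 4 SOX and 3 GATA genes. The 20 that exceeded 1, the lowest value of the table, in at least 4 of the 12 libraries were kept. The remaining gene, GATA4, exceeded 1 only in PND0 3 and PND0 4, at 1.52 and 4.22. A further 34 genes of the same families stand in the table under placeholder or hyphenated symbols and were recognised by gene ID or by the table's own description. Of these, 25 were kept (11 FOX, 10 SOX and 4 GATA), and they are counted separately throughout, as the further family genes.

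The animals were crossbred gilts of Landrace, Yorkshire, Duroc and Hampshire stock, with 4 in each of 3 groups and 1 uterine RNA library per animal. PND2N gilts had nursed for 48 h and PND2R gilts had been fed a commercial milk replacer for 48 h, and the uteri of both groups were collected at 50 h of age. PND0 gilts were sampled within 1 h of birth, without nursing. Age and feeding therefore change together between a day 2 group and PND0, and only the comparison of PND2N with PND2R holds age fixed. The labels give no litter, batch or date, and the uterus was taken whole after trimming of connective tissue.

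Forkhead proteins bind DNA through a winged-helix domain, SOX proteins bend DNA through an HMG box, and GATA proteins bind the sequence GATA through zinc fingers. In the pig, uterine glands form mostly after birth, when buds of epithelium grow into the surrounding stroma while the muscle layers become organised. FOXA2 is the best known factor of the gland epithelium, and in mice its loss from the uterus prevents gland formation. In the mouse uterus SOX17 acts in the epithelium, and GATA2 acts with the progesterone receptor. SOX9 marks epithelial progenitors in many organs, FOXO factors are held out of the nucleus when insulin signalling activates AKT, and FOXF1 belongs to the hedgehog-responsive mesenchyme.

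Values are the authors' normalized linear values, which sum to 26534074 to 29544130 per library. A log2 change is a difference of mean log2(value + 1) between groups, which understates the change of low genes, and it was tested with limma over all 16862 genes tested, with Benjamini-Hochberg adjustment and a threshold of 0.05. Levels are compared across libraries but not between genes, since the sources used here do not say whether transcript length was corrected for. The main markers of smooth muscle (9 genes), stroma (7), epithelium (9) and endothelium (9) were above 1 in every library. Libraries stood apart within groups. PND2N 1, PND2R 2 and PND2R 3 lay at -123.69, -112.37 and -113.99 on the component that holds 58.5% of the variance, against -29.489 to 79.888 for the other 9 libraries. PND0 3 and PND0 4 lay at 68.294 and 65.655 on the next component (12.93%), and PND0 1 and PND0 2 at -35.451 and -34.308. Calls were therefore also made without PND2N 1, PND2R 2 and PND2R 3, without PND0 1 and PND0 2, and without PND0 3 and PND0 4, in fits chosen after seeing the data.

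The limma test called 3.32% of all genes in PND2N against PND0, 15.0% in PND2R against PND0 and 18.1% with both day 2 groups averaged. FOXO4 was the only one of the 20 genes named by symbol to pass the test, being lower on day 2. Of the 25 further family genes, SOX4 and SOX12 were lower in both day 2 groups. SOX5 was higher in PND2R gilts, while a second, SOX5-like entry had a negative change there and was not called. The scarce SOX21 and GATA3-like transcripts were called lower on day 2, and GATA3-like met the filter only through its PND0 libraries. The comparison of PND2N with PND2R called none of the family genes and 0.0119% of all genes.

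In PND2N against PND0, none of the 20 genes was called by limma, against 3.32% of all genes tested, and 2 of the 20 had an unadjusted p under 0.05 (FOXO4 and SOX7), against 23.9% of all genes. In PND2R against PND0 none was called either, where 15.0% of all genes were, and again 2 had an unadjusted p under 0.05 (FOXA2 and FOXO4), against 37.0% of all genes. With both day 2 groups averaged and set against PND0, 1 of 20 was called, against 18.1% of all genes, and 1 (FOXO4) had an unadjusted p under 0.05, against 37.8%. PND2N against PND2R called none of the 20 and 0.0119% of all genes, with an unadjusted p under 0.05 for 1 of the 20 (FOXA2) and 2.68% of all genes. The median log2 change of the 20 genes was -0.06 in PND2N against PND0, 0.07 in PND2R against PND0 and -0.13 in PND2N against PND2R. Over all genes tested these medians were -0.04, -0.06 and 0.03. For the 25 further family genes the counts were 2 (SOX4 and SOX12) in PND2N against PND0, 4 (SOX4, SOX12, SOX5 and GATA3-like) in PND2R against PND0 and 4 (SOX4, SOX12, SOX21 and GATA3-like) in the averaged day 2 comparison. None was called in PND2N against PND2R, with an unadjusted p under 0.05 for 1 (SOX5). Their median changes were -0.58, -0.53 and -0.04 in PND2N against PND0, PND2R against PND0 and PND2N against PND2R, and many of these genes lie near the lowest value of the table.

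The 2 counts against PND0 share the 4 PND0 libraries, so they are not independent of each other. Among the 20 genes, without PND0 1 and PND0 2, the number called was 0 in PND2N against PND0, 2 in PND2R against PND0 and 1 in the averaged comparison, where 13.0%, 21.7% and 22.3% of all genes were called. Without PND0 3 and PND0 4 it was 1, 1 and 2 in these comparisons, against 2.62%, 7.03% and 8.37% of all genes. Without PND2N 1, PND2R 2 and PND2R 3 it was 0 in all 3, against 1.65%, 1.70% and 8.51% of all genes.

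**Figure D1:**
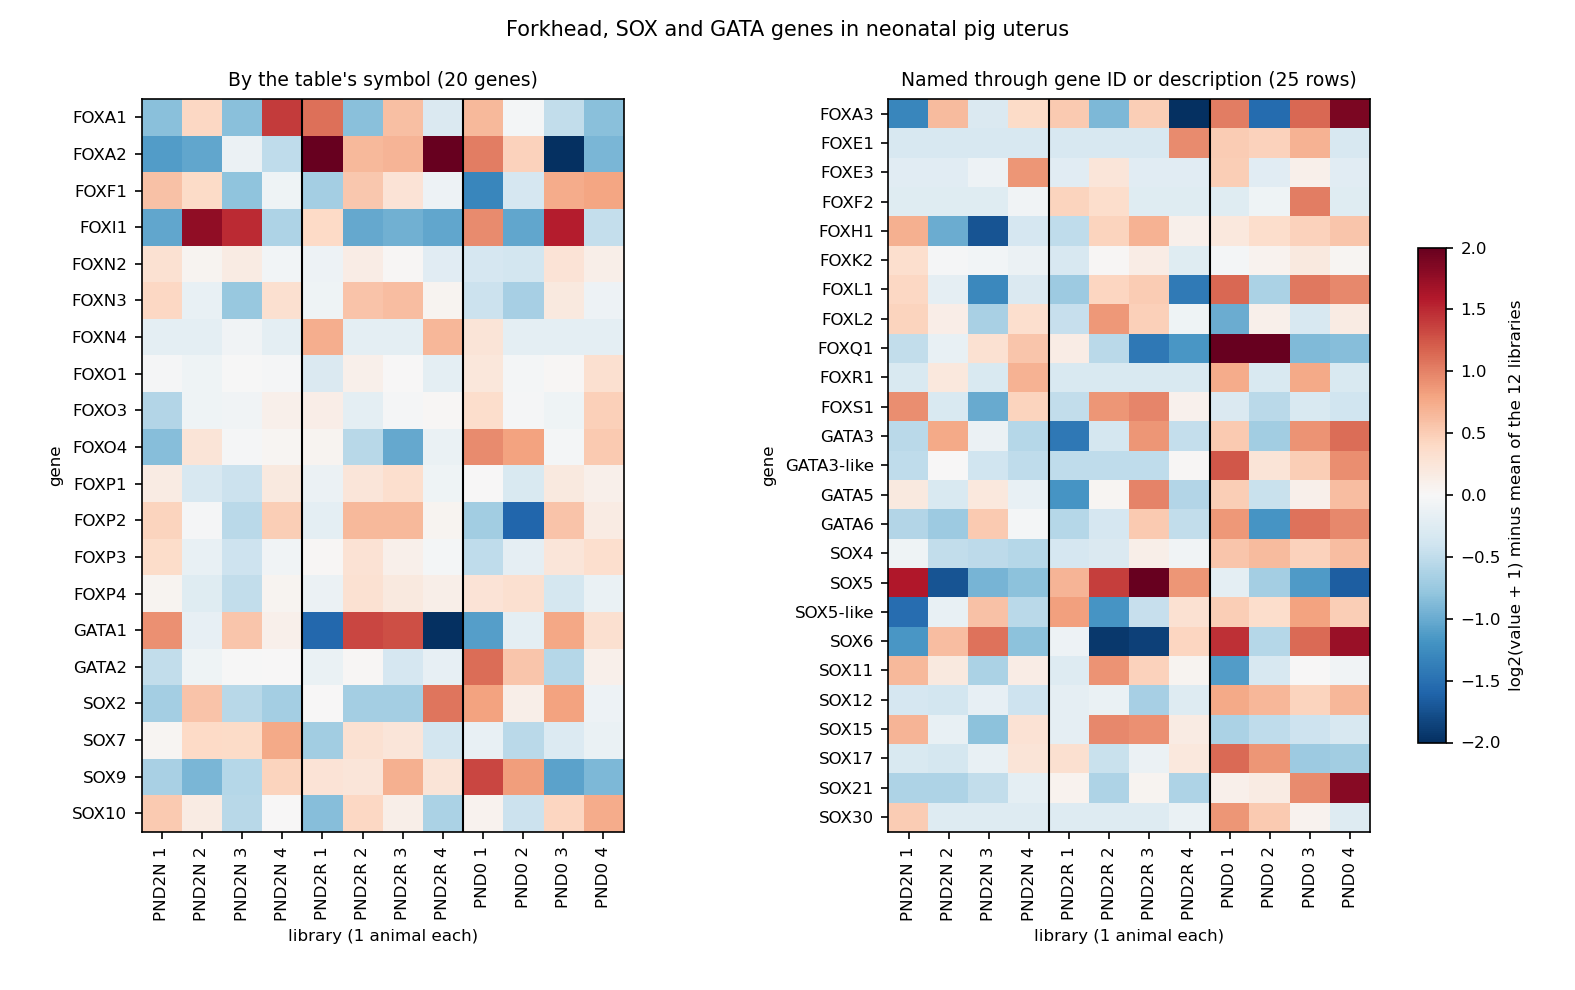
Level of the 45 kept family genes in each library, as log2(value + 1) minus the gene's mean over the 12 libraries (colours end at 2 and -2), with the 20 genes named by symbol in the left panel, the 25 further family genes in the right one, and PND2N, PND2R and PND0 from left to right. SOX4 and SOX12 are higher in all 4 PND0 libraries than in any day 2 library, FOXA2 is highest in PND2R 1 and PND2R 4, and several rows divide PND0 1 and PND0 2 from PND0 3 and PND0 4.

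FOXA2, the gland epithelium factor (chromosome 17, 34672179 to 34675274, minus strand, build Sscrofa10.2), had 19.4, 20.5, 40.0 and 30.0 in the 4 PND2N libraries. It had 264, 68.2, 69.9 and 239 in PND2R and 89.4, 60.0, 1.52 and 22.6 in PND0. Every PND2R library was above every PND2N library, while PND0 spanned the range of PND2N on either side and overlapped PND2R through its highest library. Means were 27.5 ± 9.64 in PND2N, 160.5 ± 106 in PND2R and 43.4 ± 39.1 in PND0 (SD, n = 4 each). The PND2N to PND2R difference was -2.28 ± 0.94 on the log2 scale (SE), with a 95% interval of -4.34 to -0.23 and an unadjusted limma p of 0.0322, and it did not pass adjustment over all genes (adjusted p = 1.00). FOXA2 was the only gene of the 20 whose PND2N and PND2R libraries did not overlap, where 2.55% of all genes had no overlap. PND2R against PND0 gave a log2 change of 2.48 ± 0.94 (SE, limma adjusted p = 0.0854). It reached an adjusted p of 0.0150 without PND0 1 and PND0 2, and 0.0397 after quantile normalization. PND2N against PND0 gave 0.19 ± 0.94. The averaged change was 2.97 (adjusted p = 0.0310) without PND0 1 and PND0 2, against 1.33 (adjusted p = 0.243) with all libraries. The fit without PND0 1 and PND0 2 compares with PND0 3 and PND0 4 only, at 1.52, near the lowest value of the table, and 22.6. These 2 libraries also had lower sums of 9 epithelial markers, at 30614 and 23905, against 106200 and 110735 in PND0 1 and PND0 2. The part of these marker levels in the reduced fit was not tested.

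Within PND2R, FOXA2 was low in PND2R 2 and PND2R 3, both among the libraries that stood apart, and high in the other 2. The summed level of the 9 epithelial markers (keratins, claudins, EPCAM, ESRP1 and ELF3) was carried mostly by KRT8 and KRT19 and did not follow that order, at 76970.5, 74429, 94762 and 78107, and none of the 9 was near the lowest value there. Of the 9, 2 had the same order of PND2R libraries as FOXA2. ESRP1, an epithelial splicing factor, had 3982, 1363, 1855 and 3517, and EPCAM, an epithelial adhesion protein, had 156, 79.7, 120.0 and 141. ESRP1 alone of the 9 also shared the FOXA2 order in PND2N, at 1413, 2302, 3617 and 2995, and in PND0, at 3397, 3068, 984 and 1129. The FOXA2 order was not particular to epithelial markers. In PND2R it was also that of 3 of 9 endothelial markers, 1 of 7 stromal markers, 1 of 5 Schwann and neural crest markers and 2 of 5 ciliated cell markers. UPK3B, a mesothelial marker, had the FOXA2 order in PND2N and in PND0, but not in PND2R. ESRP1 and EPCAM were picked out after their values were seen, and their part in the FOXA2 values was not tested. By group the sum of the 9 was 51373 to 95781 in PND2N, 74429 to 94762 in PND2R and 23905 to 110735 in PND0. None of the 9 markers was called by limma in any of the 4 comparisons, and 1 had an unadjusted p under 0.05 in PND2R against PND0. In bulk tissue, fewer cells of a type and less RNA per cell cannot be told apart. The other FOXA genes were scarce. FOXA1, a close relative that also opens chromatin in endoderm-derived epithelia, did not exceed 8.36 in any library. FOXA3 ranged from 2.42 to 12.1 in PND2N, 1 to 11.1 in PND2R and 1.88 to 30.0 in PND0.

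SOX9, SOX17, FOXQ1 and GATA2 shared a layout in which PND0 1 and PND0 2 were the highest 2 of the 12 libraries. FOXA2 differed in that PND2R 1 and PND2R 4 were its highest. Within PND0 it too was higher in PND0 1 and PND0 2 (89.4 and 60.0) than in PND0 3 and PND0 4 (1.52 and 22.6). PND0 3 and PND0 4 lay far below them for SOX9, SOX17 and FOXQ1, while for GATA2 PND0 4 was the third highest of the 12 and PND0 3 the lowest. SOX9 had 364, 302, 382 and 780.1 in PND2N, 687, 678, 931 and 685 in PND2R and 1448, 1017, 272 and 305 in PND0. SOX17, an HMG box factor of uterine epithelium and of endothelium in mice, had 4475, 4341, 4985 and 6601 in PND2N, 6931, 4046, 5076 and 6437 in PND2R and 12081, 10219, 3350.4 and 3399 in PND0. For both, all 8 day 2 libraries lay inside the PND0 range. FOXQ1, a forkhead gene of epithelia, had 10.3, 13.3, 18.7 and 22.4 in PND2N, 16.7, 9.99, 4.88 and 6.09 in PND2R and 69.1, 80.4, 7.59 and 7.86 in PND0. GATA2, a partner of progesterone receptor action that is also active in blood and endothelial cells, had 4755, 6334, 6695 and 6751 in PND2N, 6158, 6843, 5303 and 5984 in PND2R and 14503, 9851, 4505 and 7195 in PND0. FOXQ1 was chosen for description after its values were seen.

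The epithelial marker sum divided the PND0 libraries as FOXA2, SOX9, SOX17 and FOXQ1 did, at 106200.0, 110735, 30614 and 23905 in PND0 1 to PND0 4. Its part in these results was not tested. No limma comparison called SOX9, SOX17, FOXQ1 or GATA2 with all 12 libraries, and none of these 4 had an unadjusted p under 0.05. Log2 changes in the averaged day 2 groups against PND0 were -0.08 for SOX9, -0.22 for SOX17, -1.04 for FOXQ1 and -0.44 for GATA2, with adjusted p of 0.909, 0.658, 0.249 and 0.200. Calls depended on which PND0 libraries were kept. Without PND0 3 and PND0 4, GATA2 was lower in PND2N (log2 -0.98, adjusted p = 0.0449) and in PND2R (-0.98, adjusted p = 0.0289), as was SOX17 (-1.14, adjusted p = 0.0465 in PND2N and -1.01, adjusted p = 0.0402 in PND2R). In the averaged comparison GATA2 was then at -0.98, adjusted p = 0.0209, SOX17 at -1.08, adjusted p = 0.0256 and FOXQ1 at -2.59, adjusted p = 0.0194. FOXQ1 was also lower in PND2R (-2.99, adjusted p = 0.0234). SOX9 was higher in PND2R without PND0 1 and PND0 2 (1.35, adjusted p = 0.0254).

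**Figure D2:**
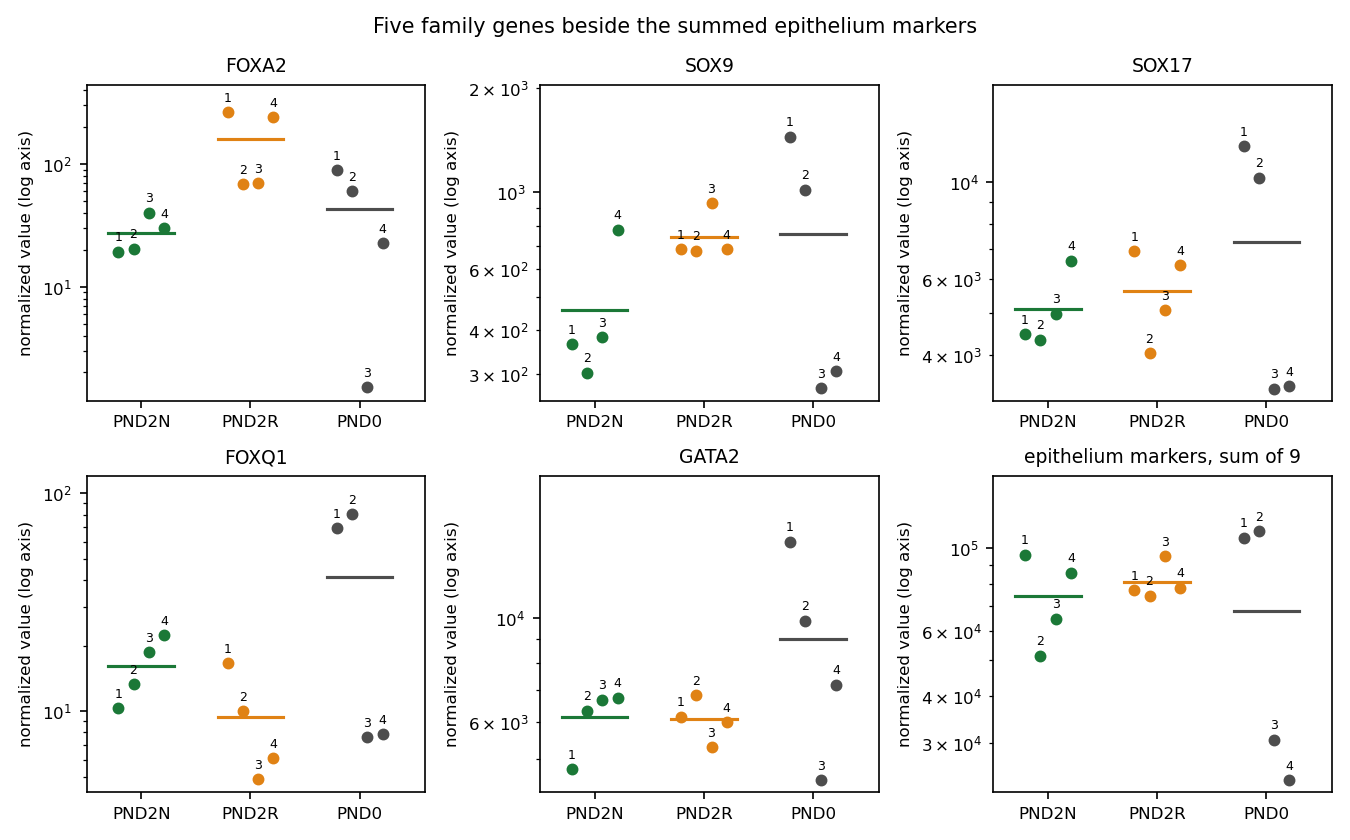
Values of FOXA2, SOX9, SOX17, FOXQ1 and GATA2 and the summed level of 9 epithelial markers in each library (log axes, authors' normalized values), with PND2N, PND2R and PND0 from left to right and the arithmetic mean of each group as a line. FOXA2, SOX9, SOX17, FOXQ1 and the marker sum are higher in PND0 1 and PND0 2 than in PND0 3 and PND0 4. FOXA2 is the gene whose PND2R libraries all lie above PND2N.

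FOXO4 (chromosome X, 61511731 to 61518655, plus strand) codes for a forkhead factor that insulin signalling keeps out of the nucleus. It had 573, 1244, 1018 and 1064 in PND2N, 1076, 709, 512 and 949 in PND2R and 1989, 1803, 1012 and 1486 in PND0. The highest 3 of the 12 libraries were PND0 libraries, and PND0 3 lay inside the day 2 range. Means were 975 ± 285 in PND2N, 811 ± 251 in PND2R and 1572 ± 427 in PND0 (SD, n = 4 each). The averaged day 2 groups were -0.83 ± 0.27 relative to PND0 on the log2 scale (SE, limma adjusted p = 0.0488). PND2N alone gave -0.70 ± 0.31 (adjusted p = 0.191) and PND2R alone -0.96 ± 0.31 (adjusted p = 0.0533). The call lay close to the threshold. Leaving out the library given in parentheses ended it, at an adjusted p of 0.0624 (PND2N 1), 0.0503 (PND2N 3), 0.0730 (PND2N 4), 0.0846 (PND2R 2), 0.0800 (PND2R 3), 0.0538 (PND2R 4), 0.122 (PND0 1), 0.104 (PND0 2) and 0.110 (PND0 4). It held without PND2N 2, PND2R 1 or PND0 3. It also ended without PND2N 1, PND2R 2 and PND2R 3 together (-0.53, adjusted p = 0.129), without PND0 1 and PND0 2 (-0.52, adjusted p = 0.274) and without PND0 3 and PND0 4 (-1.15, adjusted p = 0.0584).

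FOXO3, the FOXO gene with the highest mean value in the table, had 3259.9, 4627, 4662 and 5229 in PND2N, 5342, 4294, 4793 and 4964 in PND2R and 6214, 4803, 4609.8 and 6782 in PND0. Its PND2N and PND2R libraries both overlapped PND0, and the averaged day 2 change was -0.26 ± 0.15 (adjusted p = 0.215). FOXO1, a FOXO factor of the endometrial stroma in women, varied least of the 3, with 2546 to 2689 in PND2N, 2198 to 2894 in PND2R and 2614 to 3368 in PND0. All 3 FOXO genes had a negative change in both day 2 groups, and of the 3 only FOXO4 passed the test.

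Of 15 tested genes of the route from insulin and IGF receptors to AKT, the kinase that acts on FOXO proteins, 5 were called lower in the averaged day 2 comparison and none higher, where 8.49% of all genes were called lower. In PND2N against PND0, 2 were called lower (1.41% of all genes), and in PND2R against PND0, 5 (7.31%). The median log2 change of the 15 was -1.02 in the averaged comparison, against -0.05 over all genes tested. INSR, the insulin receptor, averaged 226 ± 125 in PND2N, 162 ± 115 in PND2R and 869 ± 180.2 in PND0 (SD, n = 4 each). IGF1R, the receptor for insulin-like growth factors, averaged 1421 ± 159 in PND2N, 1533 ± 494 in PND2R and 2967 ± 541 in PND0. IRS1, the adaptor below both receptors, averaged 1558 ± 406 in PND2N, 1870.0 ± 591 in PND2R and 3796 ± 926 in PND0. Averaged log2 changes were -2.45 ± 0.52 for INSR, -1.02 ± 0.20 for IGF1R and -1.18 ± 0.24 for IRS1 (SE), with limma adjusted p of 0.0126, 0.00962 and 0.0113. These 3 averaged calls held with each library left out in turn. INSR and IGF1R lost them without PND0 3 and PND0 4 (adjusted p = 0.0877 and 0.0557), and IRS1 without PND0 1 and PND0 2 (adjusted p = 0.0530). The 2 calls in PND2N against PND0 were IGF1R and IRS1, and these were less stable. Both ended when only the 2 groups compared entered the fit (adjusted p = 0.0740 and 0.0823). Both also ended without any 1 of PND2N 1, PND2N 2, PND2N 4, PND2R 4, PND0 1, PND0 3 and PND0 4. PIK3R1, a regulatory subunit of PI3 kinase, changed by -1.91 ± 0.45 (adjusted p = 0.0170), a call lost without PND0 4 (-1.80, adjusted p = 0.0594). The fifth was RICTOR, a subunit of the kinase complex that activates AKT, at -2.32 ± 0.73 (adjusted p = 0.0467). Its call ended without the library in parentheses, at an adjusted p of 0.0640 (PND2N 1), 0.0853 (PND2N 4), 0.0831 (PND2R 2), 0.0770 (PND2R 3), 0.10 (PND0 1), 0.0587 (PND0 2), 0.116 (PND0 3) and 0.103 (PND0 4). It ended too without libraries that stood apart, at -1.33 without PND2N 1, PND2R 2 and PND2R 3 (adjusted p = 0.108), -2.47 without PND0 1 and PND0 2 (adjusted p = 0.105) and -2.16 without PND0 3 and PND0 4 (adjusted p = 0.205). The PIK3R1 call ended in 1 of these fits, at -1.76 without PND0 3 and PND0 4 (adjusted p = 0.107).

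Genes known as FOXO targets did not move in 1 direction. Of 18 tested, 1 was called higher and 3 lower in the averaged day 2 comparison, where 9.57% of all genes were called higher and 8.49% lower, with a median log2 change of -0.09, against -0.05 over all genes. INSR and RICTOR belong to this list as well as to the route above. SESN3, a stress-responsive sestrin, was higher on day 2, with means of 5590.3 ± 1157 in PND2N, 6935 ± 257 in PND2R and 3907 ± 1029 in PND0, a log2 change of 0.70 ± 0.18 and an adjusted p of 0.0225. This call was lost without the library in parentheses, at an adjusted p of 0.0601 (PND0 1) and 0.0535 (PND0 2). CITED2, a transcriptional co-regulator, was lower, at -0.64 ± 0.19 (adjusted p = 0.0404), and lost its call without the library in parentheses, at an adjusted p of 0.0604 (PND2N 1), 0.0746 (PND2N 4), 0.0697 (PND2R 2), 0.0718 (PND2R 3), 0.0821 (PND0 1), 0.0626 (PND0 2), 0.117 (PND0 3) and 0.0640 (PND0 4). Without libraries that stood apart, SESN3 lost its call at 0.64 without PND2N 1, PND2R 2 and PND2R 3 (adjusted p = 0.0760) and 0.37 without PND0 1 and PND0 2 (adjusted p = 0.142). CITED2 lost it at -0.40 without PND2N 1, PND2R 2 and PND2R 3 (adjusted p = 0.115), -0.67 without PND0 1 and PND0 2 (adjusted p = 0.0986) and -0.62 without PND0 3 and PND0 4 (adjusted p = 0.141).

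**Figure D3:**
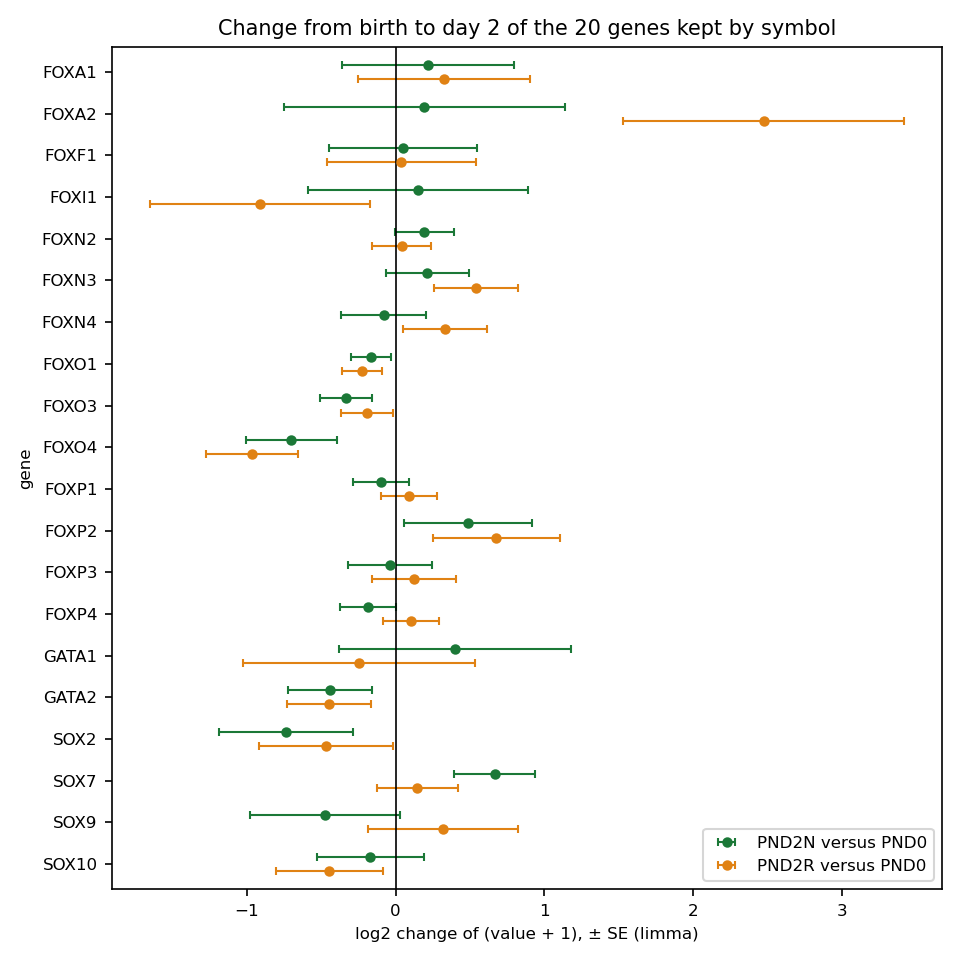
Log2 change (limma, on log2(value + 1)) of the 20 family genes named by symbol, in PND2N against PND0 (green) and PND2R against PND0 (orange), with the SE as bars (n = 4 animals per group). FOXA2 in PND2R lies farthest from 0, at 2.48 with an SE of 0.94, and FOXO4 lies under 0 in both comparisons, the only gene of the 20 called when both day 2 groups were averaged.

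SOX4, SOX11 and SOX12 form the SOXC group, which is active in progenitor cells of many embryonic tissues. SOX4 (chromosome 7, 17696164 to 17699355, plus strand) had 3312, 2504, 2445 and 2364 in PND2N, 2788, 2872, 3825 and 3342 in PND2R and 5166, 5451, 4859.7 and 5412 in PND0. All 8 day 2 libraries were below all 4 PND0 libraries. Means were 2656 ± 441 in PND2N, 3207 ± 479 in PND2R and 5222 ± 273 in PND0 (SD, n = 4 each). SOX12 (chromosome 17, 39852727 to 39853623, minus strand) had 964, 939.6, 1083 and 912 in PND2N, 1073, 1113, 763 and 1013 in PND2R and 2057, 1916, 1649 and 1922 in PND0. Again no day 2 library reached the PND0 range, and the means were 975 ± 75.2 in PND2N, 991 ± 157 in PND2R and 1886 ± 171 in PND0. In the averaged comparison, 13.3% of all genes tested had no overlap between the 8 day 2 libraries and the 4 PND0 libraries, as had 4 of the 25 further family genes and none of the 20 named by symbol. Of these 4, GATA3-like met the filter only through its PND0 libraries. SOX4 changed by -0.99 ± 0.15 in PND2N (SE, limma adjusted p = 0.0113) and -0.71 ± 0.15 in PND2R (adjusted p = 0.0138). SOX12 changed by -0.95 ± 0.16 in PND2N (adjusted p = 0.0184) and -0.94 ± 0.16 in PND2R (adjusted p = 0.00724).

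In the averaged comparison both calls held with each library left out in turn (SOX4 -0.85 ± 0.13, adjusted p = 0.00380, and SOX12 -0.94 ± 0.13, adjusted p = 0.00325). The SOX4 call in PND2N was lost without PND2N 4 (adjusted p = 0.0574) and that in PND2R without PND2R 2 (adjusted p = 0.0512). The SOX12 call in PND2N was lost without PND2N 4 (adjusted p = 0.0720) and without PND0 4 (adjusted p = 0.0594). All of these SOX4 and SOX12 calls held without PND2N 1, PND2R 2 and PND2R 3, without PND0 1 and PND0 2, and without PND0 3 and PND0 4. Both PND2N calls were lost when only the 2 groups compared entered the fit (adjusted p = 0.0697 for SOX4 and 0.0734 for SOX12). SOX11 did not share the direction. It had 1019, 741, 419 and 718 in PND2N, 543, 1206, 889.9 and 674 in PND2R and 298, 519, 654 and 618 in PND0, with overlapping groups and an averaged log2 change of 0.56 ± 0.30 (adjusted p = 0.179). SOX11 and FOXO1 were given after their values were seen, to complete their groups. PND2N and PND2R were not shown to differ in any of the 3 SOXC genes (log2 -0.27 for SOX4, 95% interval -0.59 to 0.05, -0.01 for SOX12, interval -0.35 to 0.33, and -0.20 for SOX11, interval -0.94 to 0.55).

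**Figure D4:**
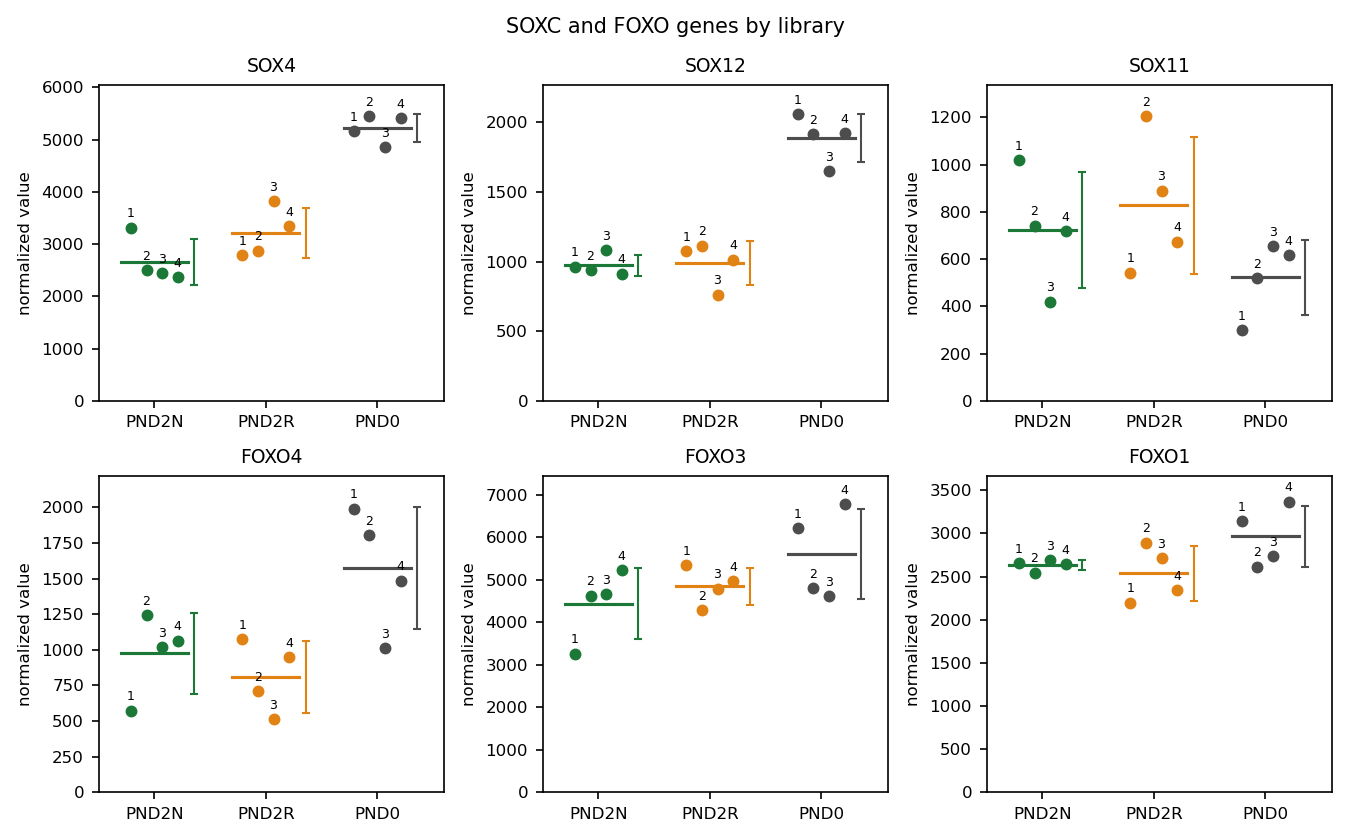
Values of the SOXC genes (SOX4, SOX11, SOX12) and the FOXO genes (FOXO1, FOXO3, FOXO4) in each library, in the authors' normalized values on linear axes from 0, with the mean and SD of each group (n = 4 each). In the SOX4 and SOX12 panels every PND2N and PND2R point lies under every PND0 point, whereas the groups overlap in the other 4.

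SOX5 and SOX6 form the SOXD group, which lacks an activation domain of its own and works beside SOX9 in cartilage. SOX5 (chromosome 5, 51269384 to 51392172, minus strand) had 273, 26.1, 46.3 and 50.0 in PND2N, 143, 234, 545 and 164 in PND2R and 78.1, 55.1, 40.1 and 27.6 in PND0. All 4 PND2R libraries were above all 4 PND0 libraries. In PND2N, 3 libraries lay at 26.1 to 50.0, about the level of PND0, and PND2N 1 lay above every PND0 library. The log2 change was 2.30 ± 0.67 in PND2R against PND0 (SE, limma adjusted p = 0.0399), 0.44 ± 0.67 in PND2N against PND0 (adjusted p = 0.689) and -1.85 ± 0.67 in PND2N against PND2R (unadjusted p = 0.0167, adjusted p = 1.00). The PND2R call ended without the library in parentheses, at an adjusted p of 0.0565 (PND2N 4), 0.0953 (PND2R 2), 0.124 (PND2R 3), 0.0530 (PND2R 4), 0.0504 (PND0 1), 0.0585 (PND0 2), 0.0844 (PND0 3) and 0.104 (PND0 4). It ended too without libraries that stood apart, at 1.69 without PND2N 1, PND2R 2 and PND2R 3 (adjusted p = 0.0846) and 1.82 without PND0 3 and PND0 4 (adjusted p = 0.194). In PND2R against PND0, 7.70% of all genes were called higher.

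A second entry, described in the table as SOX5-like, lies on the plus strand of the same chromosome (51687914 to 51777145). Whether it is a separate gene or a part of SOX5 cannot be told from the sources used here. Its change in PND2R against PND0 was -0.66 ± 0.50 (SE, limma adjusted p = 0.345), opposite in direction to that of SOX5. It had 21.7, 57.4, 97.0 and 43.9 in PND2N, 114, 27.6, 46.4 and 79.4 in PND2R and 90.05, 81.6, 112 and 90.8 in PND0, with no call. Its lowest libraries were PND2N 1 and PND2R 2, which were among the 3 highest for SOX5. Whether counting used strand is not given in the sources used here, and the 2 entries do not overlap in position. SOX6 had 2.42, 10.7, 15.2 and 3.35 in PND2N, 6.09, 1, 1.10 and 9.27 in PND2R and 20.1, 4.16, 15.8 and 24.3 in PND0, near the lowest value of the table in PND2R 2 and PND2R 3, and was not called. SOX6 and the SOX5-like entry are described after their values were seen. The smooth muscle marker sum (9 genes, none near the lowest value) was 420199, 225386, 163191 and 275247 in PND2N, 207499, 336631, 325266 and 224579 in PND2R and 172904, 203753, 243551 and 253805 in PND0. Its highest 3 libraries, PND2N 1, PND2R 2 and PND2R 3, were also the highest 3 for SOX5. Single markers differed: these libraries were the highest 3 for 5 of the 9 (DES, ACTA2, CNN1, TAGLN and LMOD1), while SYNPO2 had 16530.4, 15194 and 14172 in them, against 27169 and 25489.7 in PND0 3 and PND0 4. PND2N 1, PND2R 2 and PND2R 3 also had the lowest stromal marker sums of the 12 libraries, at 288180.0, 317015 and 249219, against 333373 to 523182 in the other 9. PDGFRA, a receptor of fibroblasts, was at 9.68, 16.8 and 17.6 in them, against 47.7 to 147 in the other 9. VWF, the endothelial clotting factor, was at 24.2, 55.8 and 90.2, against 591 to 3194. Here too single markers differed. These libraries were the lowest 3 for 2 of the 7 stromal markers (PDGFRA and COL3A1) and the highest 3 for 1 (THY1). They were the lowest 3 for 2 of the 9 endothelial markers (VWF and TIE1), while ESAM was highest of the 12 in PND2N 1. The part of these marker values in the SOX5 result was not tested.

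FOXS1, a forkhead gene of pericytes in mice, had its highest values in the same 3 libraries. Its values were 2009.5, 852, 525 and 1427 in PND2N, 742, 1946, 2075 and 1109 in PND2R and 857, 721, 853 and 800.0 in PND0. The PND0 libraries were tightly grouped and the day 2 libraries lay on either side of them, with no call (averaged log2 change 0.57 ± 0.35, adjusted p = 0.245). SOX15, known from muscle precursor cells in mice, had 209, 116, 72.7 and 159 in PND2N, 114, 254, 245 and 146 in PND2R and 82.8, 91.1, 96.9 and 104 in PND0. All PND2R libraries were above all PND0 libraries, as for 2 of the 25 further family genes (SOX5 and SOX15), none of the 20 named by symbol and 12.7% of all genes tested, but the change of 0.94 ± 0.37 had an adjusted p of 0.0913. FOXP2, described here after its values were seen, had 906, 656, 458 and 938 in PND2N, 579, 1041, 1042 and 687 in PND2R and 407, 219, 988 and 745 in PND0. Its PND0 libraries covered most of the day 2 range, and no comparison called it with all 12 libraries, while the averaged change was 1.34, adjusted p = 0.0481 without PND0 3 and PND0 4. PND2N 1, PND2R 2 and PND2R 3 were the highest 3 libraries for FOXS1 and SOX15, and PND2R 2 and PND2R 3 for FOXP2. The part of the smooth muscle, stromal and endothelial marker values of these 3 libraries was not tested here either.

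**Figure D5:**
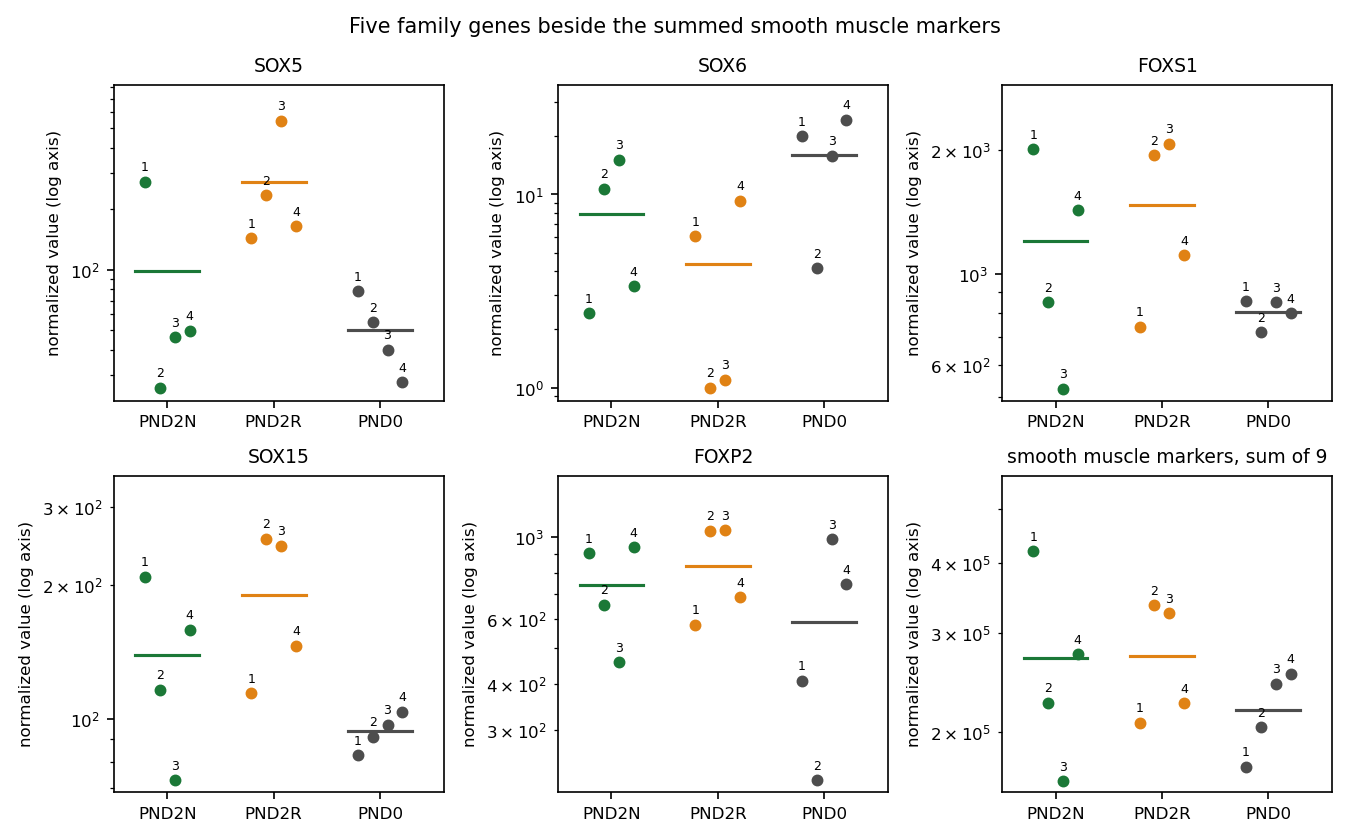
Values of SOX5, SOX6, FOXS1, SOX15 and FOXP2 and the summed level of 9 smooth muscle markers in each library (authors' normalized values, log axes), with PND2N, PND2R and PND0 from left to right and group means as lines. PND2N 1, PND2R 2 and PND2R 3 are the highest 3 libraries for SOX5, FOXS1, SOX15 and the marker sum and among the lowest for SOX6, and the 4 PND2R points of SOX5 and SOX15 lie above the PND0 points.

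Forkhead genes of the stroma and mesenchyme overlapped between groups. FOXL2, a forkhead factor of the ovary and uterine stroma, had 2105, 1683, 984 and 1943 in PND2N, 1116, 2812, 2144 and 1459 in PND2R and 775, 1658, 1229 and 1731 in PND0, with no call (averaged change 0.39 ± 0.30, adjusted p = 0.345). PND2R 2, PND2R 3 and PND2N 1 were again its highest 3 libraries. FOXF1 had 151, 131, 57.2 and 94.0 in PND2N, 62.4, 146, 122 and 93.0 in PND2R and 40.0, 79.0, 167 and 174 in PND0. PND0 1 and PND0 2 were low and PND0 3 and PND0 4 high, the opposite of the order seen for SOX17. FOXF2 and FOXL1, which belong to the same mesenchymal group, did not exceed 3.80 and 10.7.

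Of the broadly active forkhead genes, FOXK2 had 3035 to 4159 in PND2N, 2657 to 3654 in PND2R and 3218 to 3772 in PND0. FOXN3, a repressor, had 4624, 3130.0, 2046 and 4321 in PND2N, 3258, 5154, 5291 and 3569 in PND2R and 2563, 2182, 3947 and 3207 in PND0. It was not called, and its highest libraries were PND2R 3, PND2R 2 and PND2N 1. FOXP4 had 3109, 2533, 2132 and 3130.1 in PND2N, 2780.0, 3730.2, 3458 and 3269 in PND2R and 3639, 3749, 2358 and 2727 in PND0, again with overlap. FOXN2 lay at 514 to 657 in PND2N, 459 to 592 in PND2R and 415 to 645 in PND0, and FOXP1 at 1651 to 2551, 2058 to 2811 and 1811 to 2554 in these groups. FOXP3, the factor of regulatory T cells, lay at 78.4 to 135 in PND2N, 102 to 127 in PND2R and 72.9 to 133 in PND0, where the 7 lymphoid markers summed to 173 to 215, 127 to 165 and 159 to 261. FOXH1, a SMAD partner, was 78.3 to 433 in PND2N, 184 to 426 in PND2R and 305 to 388 in PND0, with an unadjusted p of 0.0479 and an adjusted p of 0.205 in PND2N against PND0. FOXI1, known from acid-secreting epithelial cells, stayed at or under 13.1, FOXN4 at or under 2.77, and FOXE1, FOXE3 and FOXR1 at or under 3.82, 3.35 and 3.17. None of the genes of this paragraph was called by limma in any comparison, and FOXH1 alone had an unadjusted p under 0.05.

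SOX7, which like SOX17 belongs to the SOXF group of vessel-forming cells, was the only gene named by symbol without overlap between PND2N and PND0. It had 284, 367, 362 and 469 in PND2N, 171, 344, 328 and 215 in PND2R and 251, 190.1, 229 and 254 in PND0. Each PND2N library was above each PND0 library, as for 8.14% of all genes tested, while PND2R spread over both ranges. The PND2N change of 0.67 ± 0.27 had an unadjusted p of 0.0300 and did not pass adjustment (adjusted p = 0.164). The 9 endothelial markers summed to 10506 to 15524 in PND2N, 8909.6 to 9283 in PND2R and 11844 to 19342 in PND0, with a lower mean in PND2N (12457) than in PND0 (15927). Of the 9, 3 had a higher mean in PND2N than in PND0, as SOX7 had: KDR (2148 against 1712), TEK (1138 against 1063) and ESAM (927 against 751). The part of these markers in the SOX7 values was not tested. TIE1, a receptor of vessel lining cells, was the 1 of the 9 called lower in the averaged day 2 comparison (log2 -1.55 ± 0.21, adjusted p = 0.00321), where 8.49% of all genes were. Of the 9, 1 was called lower in PND2N against PND0 (1.41% of all genes) and 2 in PND2R against PND0 (7.31%).

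SOX10, the factor of neural crest and Schwann cells, ranged over 173 to 366 in PND2N, 140.2 to 338 in PND2R and 189 to 427 in PND0, and was not called. The 5 Schwann and neural crest markers summed to 1859.9 to 2826 in PND2N, 1889 to 2237 in PND2R and 2056 to 3613 in PND0. SOX2, a factor of pluripotent and neural cells, did not exceed 5.72. SOX21 had 1, 1, 1.18 and 1.67 in PND2N, 2.22, 1, 2.20 and 1 in PND2R and 2.30, 2.45, 4.92 and 9.82 in PND0. It was called lower in the averaged comparison (-1.14 ± 0.33, limma adjusted p = 0.0371), but its day 2 libraries are at or close to the lowest value of the table, and the call ended without the library in parentheses, at an adjusted p of 0.0574 (PND2N 1), 0.0550 (PND2N 2), 0.0568 (PND2N 4), 0.0703 (PND2R 2), 0.0523 (PND2R 3), 0.0584 (PND2R 4), 0.0939 (PND0 3) and 0.117 (PND0 4). It ended too without libraries that stood apart, at -1.12 without PND2N 1, PND2R 2 and PND2R 3 (adjusted p = 0.120) and -0.52 without PND0 3 and PND0 4 (adjusted p = 0.294). Without PND0 1 and PND0 2, SOX21 was called lower in PND2N (-1.87, adjusted p = 0.0162) and in PND2R (-1.66, adjusted p = 0.0173). SOX30 did not exceed 3.45.

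Of the GATA genes, GATA2 is described above. GATA6, a factor of endoderm, mesoderm and smooth muscle, had 421, 382, 905 and 613 in PND2N, 424, 501, 908 and 448 in PND2R and 1157, 279, 1336 and 1229 in PND0. PND0 2 was the lowest of the 12 libraries and the other 3 PND0 libraries were the highest. The averaged change was -0.65 ± 0.42 (limma adjusted p = 0.266), and it was -1.18 (adjusted p = 0.0290) without PND0 2. It was -1.23, adjusted p = 0.0373 without PND0 1 and PND0 2. In PND2R against PND0, leaving out PND0 2 gave -1.19 (adjusted p = 0.0434). GATA5 lay at 367 to 525 in PND2N, 199.9 to 897 in PND2R and 332 to 697 in PND0, and was not called. GATA1, the erythroid and mast cell factor, did not exceed 23.0. GATA3, a factor of T cells and some epithelia, had 11.6, 29.9, 15.9 and 11.3 in PND2N, 5.76, 13.4, 32.7 and 12.1 in PND2R and 25.3, 10.4, 33.1 and 38.6 in PND0, with overlap and no call. A GATA3-like entry beside it (chromosome 10, 71509239 to 71509865, minus strand) had 1, 1.86, 1.18 and 1 in PND2N, 1, 1, 1 and 1.91 in PND2R and 5.75, 2.42, 3.04 and 4.46 in PND0. It was called lower in PND2R (-1.11 ± 0.29, adjusted p = 0.0282) and in the averaged comparison (-1.10 ± 0.25, adjusted p = 0.0160). It exceeded 1 in 7 of the 12 libraries, all 4 PND0 libraries among them, and its day 2 libraries alone would not have met the filter. Since the higher group let it into the test, its calls and its lack of overlap cannot be taken as support for a change. The PND2R call ended without the library in parentheses, at an adjusted p of 0.0846 (PND2R 2), 0.0879 (PND2R 3), 0.0662 (PND0 1) and 0.0744 (PND0 4), and the averaged call without PND0 4 (adjusted p = 0.0554). Without libraries that stood apart, the PND2R call ended at -0.98 without PND2N 1, PND2R 2 and PND2R 3 (adjusted p = 0.228) and -1.13 without PND0 3 and PND0 4 (adjusted p = 0.0889), and the averaged call at -1.01 without PND2N 1, PND2R 2 and PND2R 3 (adjusted p = 0.0881) and -1.12 without PND0 3 and PND0 4 (adjusted p = 0.0694). Its day 2 values are at or next to the lowest value of the table, and reads shared with GATA3 cannot be told apart.

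Of 13 GATA partner genes tested, such as TAL1, LMO2 and FLI1, none was called by limma in any of the 4 comparisons, and 2 had an unadjusted p under 0.05 in the averaged one. Their median averaged change was -0.08, against -0.05 over all genes.

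Other genes of uterine gland development were mixed in direction. The genes described here were all called higher, and the 2 called lower are not described. Of 21 tested, 5 were called higher and 2 lower in the averaged day 2 comparison, where 9.57% of all genes were called higher and 8.49% lower, with a median log2 change of -0.10, against -0.05 over all genes. ESR1, the oestrogen receptor that gland growth in the neonatal pig depends on, averaged 5638 ± 1518 in PND2N, 4887 ± 977 in PND2R and 2206 ± 1066 in PND0 (log2 1.37 ± 0.29, adjusted p = 0.0125). INHBA, an activin subunit, averaged 1391 ± 82.4 in PND2N, 1428 ± 180.0 in PND2R and 946 ± 125 in PND0 (log2 0.58 ± 0.13, adjusted p = 0.0144). Both calls held with each library left out in turn. The INHBA call ended without libraries that stood apart, at 0.50 without PND2N 1, PND2R 2 and PND2R 3 (adjusted p = 0.0593) and 0.45 without PND0 3 and PND0 4 (adjusted p = 0.0796). The ESR1 call held in those fits. LEF1, a partner of beta-catenin, rose by 0.69 ± 0.18 (adjusted p = 0.0245), a call lost without the library in parentheses, at an adjusted p of 0.0658 (PND0 1), 0.0562 (PND0 2) and 0.0583 (PND0 4). FGF10, a stromal growth factor for epithelium, rose by 1.14 ± 0.31 (adjusted p = 0.0286), lost likewise at an adjusted p of 0.0587 (PND2N 4), 0.0524 (PND2R 2), 0.0544 (PND2R 3), 0.0773 (PND0 1), 0.0546 (PND0 2) and 0.0813 (PND0 3). The LEF1 call also ended at 0.57 without PND2N 1, PND2R 2 and PND2R 3 (adjusted p = 0.0936) and 0.48 without PND0 1 and PND0 2 (adjusted p = 0.142). The FGF10 call also ended at 1.05 without PND2N 1, PND2R 2 and PND2R 3 (adjusted p = 0.0860) and 0.87 without PND0 1 and PND0 2 (adjusted p = 0.127).

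Of 11 tested targets of SOX9 and the SOXD factors, mostly known from cartilage, 1 was called higher and 1 lower in the averaged comparison, where 9.57% of all genes were called higher and 8.49% lower, with a median change of -0.17, against -0.05 over all genes. In PND2R against PND0, 1 was called lower, where 7.31% of all genes were, with a median of -0.18, against -0.06 over all genes. The gene called lower in both was COL2A1, type II collagen, which averaged 45.4 ± 17.4 in PND2N, 11.2 ± 5.36 in PND2R and 64.9 ± 20.9 in PND0. Its PND2R change was -2.48 ± 0.44 (SE, limma adjusted p = 0.00937), a call that held with each library left out and in the fits without libraries that stood apart. Its averaged change was -1.51 ± 0.38 (adjusted p = 0.0231), lost without the library in parentheses, at an adjusted p of 0.0604 (PND0 3) and 0.0808 (PND0 4). It was lost too at -1.39 without PND2N 1, PND2R 2 and PND2R 3 (adjusted p = 0.0513) and -1.20 without PND0 3 and PND0 4 (adjusted p = 0.160). The gene called higher was AMH, a hormone gene that SOX9 activates in the testis, which averaged 1316 ± 819 in PND2N, 1599 ± 585 in PND2R and 612 ± 158 in PND0 (log2 1.13 ± 0.36, adjusted p = 0.0495). Its call ended in most fits that left out 1 library, at an adjusted p of 0.0579 (PND2N 1), 0.0908 (PND2N 4), 0.0887 (PND2R 2), 0.0876 (PND2R 3), 0.0603 (PND2R 4), 0.0673 (PND0 1), 0.0653 (PND0 2), 0.127 (PND0 3) and 0.137 (PND0 4), and without libraries that stood apart, at 0.72 without PND2N 1, PND2R 2 and PND2R 3 (adjusted p = 0.142), 1.46 without PND0 1 and PND0 2 (adjusted p = 0.0583) and 0.81 without PND0 3 and PND0 4 (adjusted p = 0.305). Among 15 hedgehog and stromal genes linked to forkhead factors, 2 were called lower in the averaged comparison, where 8.49% of all genes were, and none higher, with a median of -0.26, against -0.05 over all genes. GLI3, a transcription factor of the hedgehog pathway, averaged 145 ± 47.4 in PND2N, 111 ± 27.6 in PND2R and 402 ± 123 in PND0 (log2 -1.65 ± 0.28, adjusted p = 0.00602), and its call held with each library left out and in the fits without libraries that stood apart. GLI1, a pathway target, changed by -1.48 ± 0.45 (adjusted p = 0.0432), lost without the library in parentheses, at an adjusted p of 0.0644 (PND2N 1), 0.0797 (PND2N 4), 0.0770 (PND2R 2), 0.0693 (PND2R 3), 0.0505 (PND2R 4), 0.130 (PND0 3) and 0.143 (PND0 4). It also ended at -1.20 without PND2N 1, PND2R 2 and PND2R 3 (adjusted p = 0.139) and -0.55 without PND0 3 and PND0 4 (adjusted p = 0.420).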

How the data were processed

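Uterine messenger RNA of 12 gilts was sequenced, in 3 groups of 4. Per the labels' protocols, RNA was isolated with a column kit and made into libraries with a messenger RNA kit. The submitters' processing notes name bcl2fastq and the genome build Sscrofa10.2. How reads were aligned, counted (with or without strand) and normalized is not given in the sources used here. The deposited table holds 1 normalized linear signal per gene and library, computed by the authors, and no value is under 1. Only 35.0% to 47.4% of low values were whole multiples of a library's smallest step (within 0.02 of a step), so read counts were not recovered, the depth is unknown, and no interval or floor from counts is given. Labels do not say whether gilts shared a litter, and p-values measure the spread between these animals.

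Genes above 1 in at least 4 of the 12 libraries were tested (16862 of 20390). A two-sided limma fit of all 12 libraries (limma 3.58.1, statmod 1.5.0, R 4.3.3) used log2(value + 1), trended and robust empirical Bayes moderation, no covariate, and Benjamini-Hochberg adjustment over all genes tested. The 4 contrasts were PND2N against PND0, PND2R against PND0, the mean of both day 2 groups against PND0, and PND2N against PND2R. The fit was tested on simulated data. Tables and figures used Python 3.11.15, pandas 2.3.3, numpy 2.4.6 and matplotlib 3.10.9.

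Names for placeholder symbols came from the table's descriptions and from an NCBI RefSeq gene table of a later assembly, matched by gene ID and used for names only. Of the 115 entries in the 6 pathway lists, 95 were matched, and of the 79 entries in the 9 marker lists, 66. The members, lists and tests were chosen with earlier results of these data known. Values in every library were planned for FOXA2, each gene called in any contrast, each gene whose compared groups did not overlap (where the higher group averaged 10 or more), and the highest gene of each subfamily, 24 genes in all. Of these, FOXK2 and FOXA3 are given as group ranges, and FOXI1 and SOX2 by their highest value only. From each list, up to 4 genes with the smallest unadjusted p are named, except for the insulin to AKT genes, where all 5 called in the averaged comparison are named.

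As alternatives, the added value was set to 0.1 or 5, the filter was dropped or raised to 10, and TMM scaling or quantile normalization was applied. Fits limited to the compared groups, without robust or trended moderation, with library quality weights, and without each library in turn were also run. Fits without the libraries that stood apart were chosen after seeing the data.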

Additional observations from a re-analysis of the deposited data

Results flagged for a closer look

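In 9 of 72 groups of 4 libraries examined over the named genes, 1 library lay apart from the other 3, its gap to the nearest of them exceeding the critical share of the group's range in Dixon's test. Chance gives about 5% of groups only for independent, normally distributed values. The values here are linear with a lowest value of 1, and the genes share libraries, so the count cannot be set against that share.

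Among PND2N libraries, PND2N 1 had a SOX4 value of 3312, against 2364 to 2504 in the other 3, and a SOX5 value of 273, against 26.1 to 50.0. PND2N 4 had a SOX9 value of 780.1, against 302 to 382. PND2N 2 had a SOX2 value of 3.72, against 1 to 1.18, close to the lowest value of the table.

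Among PND2R libraries, PND2R 3 had a SOX9 value of 931, against 678 to 687, and a GATA6 value of 908, against 424 to 501. PND2R 1 had a FOXI1 value of 4.43, against 1 to 1.10, and PND2R 4 a GATA3-like value of 1.91, against 1 in the other 3. Both are near the lowest value of the table. In PND0, PND0 2 had a GATA6 value of 279, against 1157 to 1336 in the other 3.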

How the results depend on the processing

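No paired analysis was possible because the labels give no replicate numbers shared between groups. The 11 calls on family genes kept their direction in all 256 alternatives and their side of the threshold in 202. Of 169 comparisons of family genes that were not called, 26 of 3886 alternatives gave a call. Quantile normalization moved the median log2 change of all genes by 0.11 in PND2R against PND0, and SOX4, SOX12, SOX5 and FOXO4 kept their direction under it. With 1 library left out, the number called among the 20 genes named by symbol was 0 to 1 in PND2R against PND0 and 0 to 2 in the averaged day 2 comparison. Over all genes it was 26 to 661 in PND2N against PND0 (560 with all libraries), 543 to 4109 in PND2R against PND0 (2531), 1014 to 3837 in the averaged comparison (3046) and 1 to 3 in PND2N against PND2R (2). Among the 20 genes, quantile normalization gave 2 and quality weights 1 in PND2R against PND0, and no filter, plain empirical Bayes and quality weights gave 0 in the averaged comparison. With only the groups compared, PND2N against PND0 called 7 of all genes and PND2N against PND2R called 1, where quality weights called 6. Without PND2N 1, PND2R 2 and PND2R 3, all genes called were 275 (PND2N against PND0), 284 (PND2R against PND0), 1419 (averaged) and 6 (PND2N against PND2R), and among the 20 genes 0 were called in the averaged comparison. Without PND0 1 and PND0 2, they were 2169 in PND2N against PND0 and 1 in PND2N against PND2R, with 2 of the 20 genes called in PND2R against PND0. Without PND0 3 and PND0 4, they were 1169 in PND2R against PND0, 1391 averaged and 1 in PND2N against PND2R, with 1 (PND2N), 1 (PND2R) and 2 (averaged) of the 20 genes called. The cause was not tested. The further family genes called fell to 0 in PND2N against PND0 with only the groups compared, and to 2 in the averaged comparison with a filter at 10 or quantile normalization. They numbered 2 in PND2R against PND0 and 2 in the averaged comparison without PND2N 1, PND2R 2 and PND2R 3.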

Other observations

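Markers of the other cells that the uterus can hold were also summed per library. The 7 stromal markers, led by collagen and vimentin, summed to 288180.0 to 523182 in PND2N, 249219 to 424967 in PND2R and 333373 to 425734 in PND0, and 1 of them, THY1, was called higher in the averaged day 2 groups, where 9.57% of all genes were. The 5 mesothelial markers summed to 8458 to 9529 in PND2N, 5881 to 9789 in PND2R and 7077 to 15050.4 in PND0, nearly all of it WT1, which uterine stroma also expresses, and 1 (LRRN4) was called lower in the averaged comparison, where 8.49% of all genes were. LRRN4 lay near the lowest value of the table, at 1 to 4.86 in the day 2 libraries and 4.56 to 9.19 in PND0. The 10 markers of erythroid cells, megakaryocytes and mast cells, in which GATA1 and GATA2 are known to act, summed to 5617 to 6472 in PND2N, 3747 to 6673 in PND2R and 4574 to 6165 in PND0. None of the 10 was called by limma in any comparison, with 1 unadjusted p under 0.05 in the averaged one. The 5 markers of ciliated cells summed to 2677 to 3502 in PND2N, 2798 to 4386 in PND2R and 2333 to 3867 in PND0, and 1 of them was called higher in PND2R against PND0, where 7.70% of all genes were. Of the 5 Schwann and neural crest markers, 2 were called lower in PND2R against PND0, and of the 7 lymphoid markers 1, where 7.31% of all genes were called lower. None of the 9 smooth muscle markers was called by limma in any comparison, with 1 unadjusted p under 0.05 in PND2R against PND0.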
